A study of Homo sapiens with 2 samples.

Results

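GC-rich sequence usually comes with many CpG dinucleotides, so a map of nucleosomes cannot by itself tell whether it follows the one or the other. The regions described here are those in which the link is broken: 500-bp bins of the hg38 autosomes, cut from base 0, with at least 58% GC and an observed/expected CpG ratio under 0.3. The ratio is the number of CpG in a bin divided by the number that its C and G content would give. Bins with an undetermined base were left out, and every bin had to lie over 2 kb from every transcript start site in GENCODE 44. By this rule, which uses sequence and annotation and none of the nucleosome data, 46831 of 5511900 bins were members, 0.85% of all autosomal bins. They cover 23.4 Mb and held 48399 listed positions, 1.89% of those on the autosomes.

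The study mapped nucleosomes in ARPE-19, an established human line of retinal pigment epithelium, in interphase and under normal culture. Chromatin of lysed cells was cut with micrococcal nuclease (MNase) for 5 min at 37 °C, and DNA of about 150 bp was taken from a gel and sequenced. Both samples, batches 1 and 2, belong to this 1 group, and nothing was treated. For the series as a whole the authors deposited 1 list of single-base positions, without heights, scores or sample names. A position is therefore either listed or not, and the spread between the batches is unknown. Read depth is unknown. A list of positions holds no expression values, so the identity of the cells could not be checked with marker genes. Errors below are the standard deviation over the 22 autosomes. Chromosomes of a single list are not biological replicates, so these errors and the tests over them speak only to whether a difference recurs from chromosome to chromosome.

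In mammalian DNA most CpG are methylated, and a methylated C tends to mutate to T over evolutionary time, which turns CpG into TpG or, on the other strand, CpA. Most of the genome has lost CpG in this way. CpG islands, which often hold promoters and stay unmethylated, have kept them. Nucleosomes wrap GC-rich DNA readily, and MNase prefers to cut next to A and T, so maps of this kind usually rise with GC content. Methylation was not measured in the data used here.

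Sequence from neighbouring bins shows what the rule separates. The 2 pairs below are a member and a CpG-rich bin (observed/expected CpG over 0.65) with exactly the same number of G and C, taken from the closest such pairs in the reference among bins without a repeated 31-mer, low complexity or exonic sequence. Each line gives the middle 200 bases on the plus strand of hg38, 5′ to 3′, and capitals mark every CpG.

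Member between genes, chr14:99119151-99119350: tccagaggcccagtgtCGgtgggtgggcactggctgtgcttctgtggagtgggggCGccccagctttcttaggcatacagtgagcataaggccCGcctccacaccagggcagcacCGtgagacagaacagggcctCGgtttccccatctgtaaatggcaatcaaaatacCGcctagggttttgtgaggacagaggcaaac
CpG-rich bin near it, chr14:99118151-99118350: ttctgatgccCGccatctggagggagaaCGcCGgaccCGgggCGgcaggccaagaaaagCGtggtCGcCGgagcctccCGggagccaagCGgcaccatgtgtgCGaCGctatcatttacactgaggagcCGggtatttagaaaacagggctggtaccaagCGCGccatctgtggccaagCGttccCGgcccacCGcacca
Member between genes, chr10:132991651-132991850: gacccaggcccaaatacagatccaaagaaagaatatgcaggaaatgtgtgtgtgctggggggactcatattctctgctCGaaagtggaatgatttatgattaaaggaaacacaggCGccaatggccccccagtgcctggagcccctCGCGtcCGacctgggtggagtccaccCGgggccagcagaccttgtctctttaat
CpG-rich bin near it, chr10:132993651-132993850: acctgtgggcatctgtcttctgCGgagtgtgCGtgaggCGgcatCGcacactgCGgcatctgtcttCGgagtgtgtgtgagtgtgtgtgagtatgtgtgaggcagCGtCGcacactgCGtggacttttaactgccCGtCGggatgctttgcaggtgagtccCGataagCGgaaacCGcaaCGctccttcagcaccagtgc

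The chromosome 14 pair has 59% GC in both bins, with 10 CpG in the member and 35 in the CpG-rich bin. The chromosome 10 pair also has 59% GC, with 12 and 30. These pairs were chosen on sequence alone, and their position counts do not show the difference found over all bins. On chromosome 14 the member held 0 and the CpG-rich bin 1, and on chromosome 10 both held 0.

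Member bins had a mean GC content of 60.8% and a mean observed/expected CpG ratio of 0.20. That ratio is close to the 0.203 of all bins over 2 kb from start sites, so the members are poor in CpG for their GC content and not poorer than the genome. Because they hold more C and G, they carried 1.81 CpG per 100 bp, against 0.895 in all such bins, 4.20 in bins of intermediate ratio (0.3 to 0.65) and 8.35 in CpG-rich bins. CpA and TpG together stood at 16.8 per 100 bp in members, 15.4 in intermediate and 12.7 in CpG-rich bins. CpC and GpG differed little between them, at 22.98, 23.12 and 23.04 per 100 bp.

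Positions were dense in GC-rich sequence poor in CpG and sparse in GC-rich sequence that kept its CpG. Members had 2.07 positions per kb (48399 positions in 46831 bins). The 42549 intermediate bins of at least 58% GC had 1.13 per kb, and the 6240 CpG-rich bins, under the same start-site rule, had 0.338 per kb (1054 positions). All bins over 2 kb from start sites had 0.922 per kb. Members therefore lay above the genome and CpG-rich bins below it, although both are GC-rich.

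Matching for GC content left the contrast in place. CpG-rich bins have a higher mean GC, 65.9%, so the classes were compared within GC strata 1 percentage point wide, combined on each chromosome as a Mantel-Haenszel ratio. Members were 4.48 times as dense as CpG-rich bins of the same GC, a log2 ratio of 2.16 ± 0.38 (SD, n = 22 chromosomes). The ratio was above 0 on 22 of 22 chromosomes, from 1.23 on chromosome 12 to 2.61 on chromosome 8 (two-sided sign-flip permutation test over chromosomes, p = 1e-05, the smallest value 100000 draws can give, adjusted 1.5e-05 over 9 tests). Weighted to the GC content of the members, CpG-rich bins had 0.435 positions per kb and intermediate bins 1.28. Members were 1.58 times as dense as intermediate bins of the same GC, a log2 ratio of 0.66 ± 0.17, again above 0 on 22 of 22 chromosomes (permutation p = 1e-05, adjusted 1.5e-05).

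Sequence that occurs more than once in the genome and sequence of low complexity were unevenly spread over the classes. Every 31-mer sampled was unique in 76.6% of member bins and in 52.0% of CpG-rich bins, and 5.42% and 21.6% of them were low in complexity. Among unique bins alone, members had 2.31 and CpG-rich bins 0.467 positions per kb, and the GC-matched log2 ratio was 1.78 ± 0.44. Unique bins compared within the same 1-Mb window gave 1.66 ± 0.38, and both values were above 0 on 22 of 22 chromosomes. Most CpG-rich bins touched a CpG island, wholly or in part (70.1%, against 0.184% of members). CpG-rich bins touching an island had 0.307 positions per kb and the 1863 that touched none had 0.410. Without bins touching an island the log2 ratio was 2.19 ± 0.44.

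**Figure D1:**
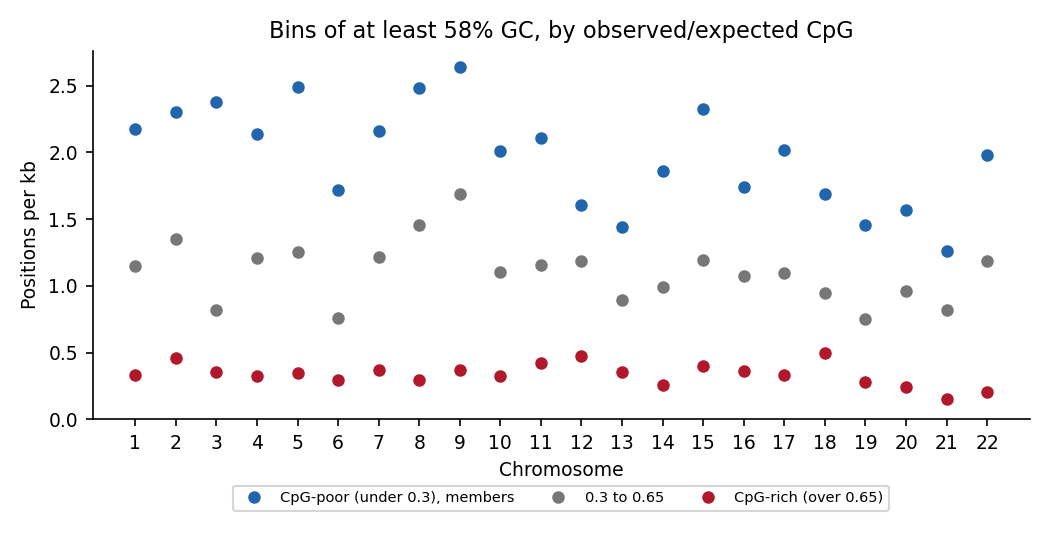
Positions per kb on each autosome in bins of at least 58% GC over 2 kb from start sites, as 1 point per chromosome and class of observed/expected CpG. Members run from 1.26 per kb on chromosome 21 to 2.64 on chromosome 9, and CpG-rich bins from 0.153 on chromosome 21 to 0.5 on chromosome 18, so members and CpG-rich bins do not overlap, while intermediate bins run from 0.748 to 1.69.

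Chromosomes differed in level. Member density averaged 1.98 per kb ± 0.38 (SD, n = 22), with chromosome 9 highest at 2.64 and chromosomes 5 and 8 next at 2.49 and 2.48, and chromosomes 21 and 13 lowest at 1.26 and 1.44. Chromosome 9 was also highest for intermediate bins, at 1.69 per kb. All other bins over 2 kb from start sites were densest there too, at 1.24 per kb, and sparsest on chromosome 6, at 0.753. CpG-rich bins averaged 0.339 ± 0.084. The lowest chromosome for members was still above the highest for CpG-rich bins.

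Density was highest at a ratio of 0.1 to 0.2 and lower in each class above it. At 58% GC or more, bins with a ratio of 0 to 0.1 had 2.07 positions per kb, those of 0.1 to 0.2 had 2.26 and those of 0.2 to 0.3 had 1.94. Then followed 1.52 at 0.3 to 0.4, 1.03 at 0.4 to 0.5, 0.524 at 0.5 to 0.65 and 0.338 above 0.65. Matched for GC against the lowest class, the log2 ratio was 0.19 ± 0.26 at 0.1 to 0.2 and -0.0054 ± 0.32 at 0.2 to 0.3, both smaller than the spread between chromosomes. It was -0.71 ± 0.39 at 0.4 to 0.5 and -1.40 ± 0.46 at 0.5 to 0.65, below 0 on 22 of 22 chromosomes in both classes. These steps were not tested one by one. Of the 4253 bins in the lowest class, 18.6% were low in complexity, against 4.84% at 0.1 to 0.2. Among them 247 bins had no CpG at all. Of these 247, 81% were low in complexity, and they had only 0.486 positions per kb. The part of such bins in the density of the class was not tested.

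**Figure D2:**
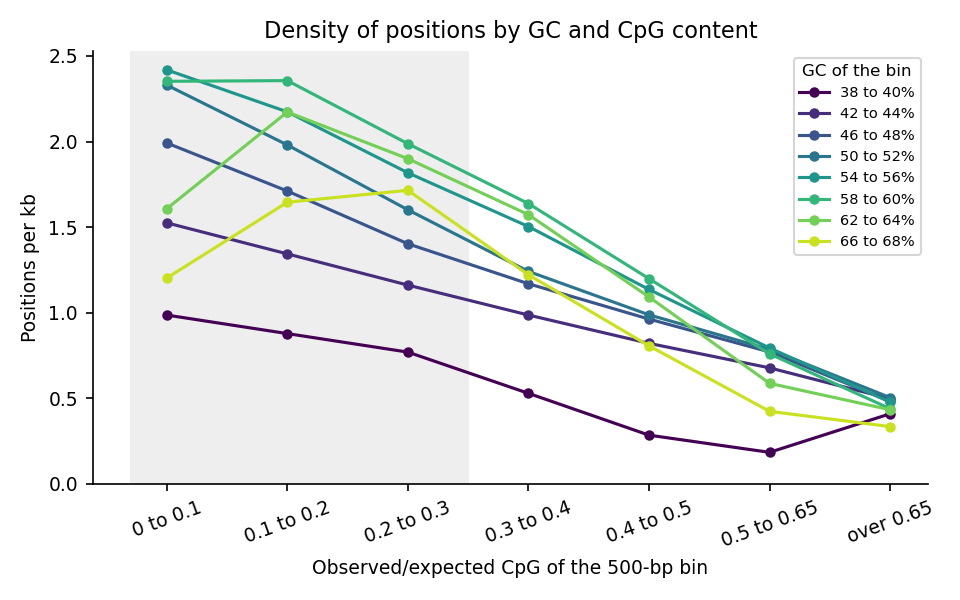
Positions per kb (vertical axis) by observed/expected CpG of the bin (horizontal axis), with 1 line per class of GC content and the CpG classes under 0.3 shaded. At 46 to 48% GC the density goes from 1.99 per kb under a ratio of 0.1 to 0.483 over 0.65, and at 58 to 60% GC from 2.35 to 0.439.

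Density was also lower in CpG-rich bins at moderate GC. Bins of 44 to 50% GC had 1.62 positions per kb with a ratio under 0.3 (634438 bins) and 0.466 per kb with a ratio over 0.65 (12704 bins). Only 6.93% of the latter were unique, against 45.9% of the former. From 50 to 58% GC, the classes under 0.1 stood between 2.33 and 2.42 per kb and those over 0.65 between 0.478 and 0.521. Whether the CpG difference was larger in GC-rich sequence depended on the bins used. The difference of the log2 ratios at 58% GC or more and at 44 to 50% was 0.34 ± 0.50, above 0 on 17 of 22 chromosomes (permutation p = 0.00463, adjusted 0.00463). Among unique bins it was 0.62 ± 0.53, above 0 on 19 of 22 chromosomes (permutation p = 5e-05), and 0.51 ± 0.40 within 1-Mb windows. Without bins of low complexity it was 0.12 ± 0.45 (permutation p = 0.213), and without the start-site rule it was -0.17.

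Among bins low in CpG, density rose with GC, up to 54 to 56% where the ratio was under 0.1. In the classes of 0.1 to 0.2 and 0.2 to 0.3 it rose up to 58 to 60%, to 2.36 and 1.99 per kb. With a ratio under 0.1 it was 0.252 per kb at 30 to 32% GC, 0.774 at 36 to 38%, 1.52 at 42 to 44% and 2.42 at 54 to 56%. The step from moderate to high GC was small beside this range. Members were 1.24 times as dense as CpG-poor bins of 44 to 50% GC (log2 ratio 0.31 ± 0.23). The ratio lay above 0 on 19 of 22 chromosomes by the same permutation test (p = 4e-05, adjusted 5.14e-05), the exceptions being 13, 18 and 21. At least 1 position was listed in 57.6% of members and in 54.1% of these moderate-GC bins. When each occupied bin was counted once, the log2 ratio was 0.068 ± 0.16, above 0 on 16 of 22 chromosomes (permutation p = 0.0664), which does not pass the test. Against all other bins over 2 kb from start sites, members were 2.15 times as dense (log2 ratio 1.11 ± 0.23, above 0 on 22 of 22 chromosomes, permutation p = 1e-05, adjusted 1.5e-05). Within the members, density fell as GC rose. It was 2.17 per kb at 58 to 60% GC, 1.97 at 62 to 64%, 1.64 at 66 to 68% and 0.374 at 70% or more, where 107 bins remained. Repetitiveness moved with it: low-complexity bins made up 2.90% of members at 58 to 60% GC, 22.04% at 66 to 68% and 83.2% at 70% or more, and unique bins 77.4, 65.6 and 15.9%. Its part in the fall was not tested.

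Values on either side of the limits of the rule changed smoothly. Bins of 58 to 59% GC had 2.18 positions per kb and bins of 57 to 58% had 2.14. Bins with a ratio of 0.25 to 0.3 had 1.83 per kb and those of 0.3 to 0.35 had 1.63. Bins of the same composition 2 to 3 kb from a start site had 2.03 per kb, those 1 to 2 kb away 1.92 and those under 1 kb away 1.75.

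A larger share of members than of other bins held a position. At least 1 position lay in 26971 members, 57.6% (95% Wilson interval 57.14 to 58.04%, counting error only), against a background of 33.6% over all bins more than 2 kb from start sites. The share was 36.5% in intermediate and 13.3% (12.5 to 14.2%) in CpG-rich bins. Bins with 2 positions made up 17.8% of members and 2.31% of CpG-rich bins. Bins with 3 positions made up 8.01% of members and 0.449% of CpG-rich bins, and the highest count in a member was 10. At most 4 positions at least 150 bp apart fit in a bin, so higher counts include positions closer together than that. Such counts were found in 327 members with 5 positions and 105 with 6 or more, and a further 1237 members had 4. With at most 3 positions counted per bin, the GC-matched log2 ratio to CpG-rich bins was 2.11.

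**Figure D3:**
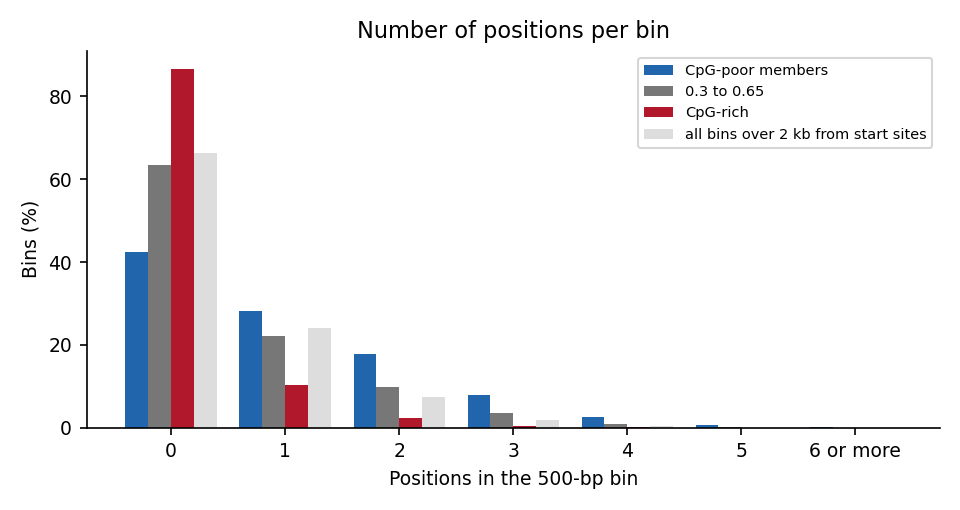
Share of bins in percent (vertical axis) by the number of positions in the bin (horizontal axis), for members, intermediate and CpG-rich bins of at least 58% GC and for all bins over 2 kb from start sites. No position was listed in 42.4% of members and in 86.7% of CpG-rich bins.

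Members with and without a position had nearly the same CpG and differed in repetitiveness. The mean observed/expected CpG was 0.199 in occupied and 0.202 in empty members, a difference of -0.0018 ± 0.0072 over chromosomes. GC content was 60.7 and 61.1%, a difference of -0.41 points ± 0.18 (SD, n = 22 chromosomes), lower in occupied members on 22 of 22 chromosomes. Stretches of 4 G or 4 C were also rarer in occupied members, at 2.52 against 2.74 per 100 bp. Overlapping stretches were each counted, so a longer run counts more than once. Unique bins made up 84.6% of occupied and 65.8% of empty members, and distinct 10-mers reached 98.6 and 93.9% of the possible number. These values describe members split by the presence of a position and were not tested.

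The 5 longest stretches of adjacent members show this, though long runs were not sparse in general. The 46831 members formed 34030 runs, of which 26017 were single bins. Density was 2.06 per kb in single bins, 2.22 in runs of 4 bins and 2.04 in the 466 runs of 5 or more. The longest, 26000 bp on chromosome 2 (87405501 to 87431500, between annotated genes), held 7 positions in 52 bins, and the next, 24500 bp on the same chromosome (91504001 to 91528500), held 0. A run of 9000 bp inside TTC34 on chromosome 1 (2666501 to 2675500) and one of 8500 bp on chromosome 15 (23042001 to 23050500) also held 0. None of the bins in these 4 runs was unique, and their mean share of distinct 10-mers was 49.0 to 66.2%. The fifth, 7500 bp inside PLXNA1 on chromosome 3 (126990001 to 126997500), a gene for a semaphorin receptor of the plexin family, was unique in all of its 15 bins. It held 24 positions, or 3.2 per kb. Both kinds of run are shown by their sequence, with CpG in capitals: the stretch of nucleosomal length centred on the listed position 126994733 in PLXNA1, and 150 bases from the middle of the run in TTC34, where distinct 10-mers averaged 66.2% of the possible number.

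PLXNA1, plus strand of hg38, chr3:126994660-126994806: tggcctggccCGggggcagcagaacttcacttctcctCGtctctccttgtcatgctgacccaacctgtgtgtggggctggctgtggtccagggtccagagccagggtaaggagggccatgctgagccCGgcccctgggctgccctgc
TTC34, plus strand of hg38, chr1:2671001-2671150: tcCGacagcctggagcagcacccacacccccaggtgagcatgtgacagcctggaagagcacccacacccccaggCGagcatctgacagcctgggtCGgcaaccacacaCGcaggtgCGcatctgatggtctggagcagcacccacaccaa

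Member density was similar across gene contexts and distances from start sites, though it differed between chromosomes and between genes. Introns and other non-exonic sequence of protein-coding genes held 49.98% of members at 2.08 positions per kb, sequence between genes 35.3% at 2.11, other genes 9.26% at 1.90, and bins that were mostly exonic 5.48% at 1.96. Density was 2.06 per kb from 2 to 5 kb from the nearest start site, 2.07 from 5 to 20 kb, 2.07 from 20 to 100 kb and 1.88 beyond 100 kb (816 bins). CpG-rich bins stood at 0.374, 0.329, 0.311 and 0.195 per kb in the same order. Within 5 Mb of a chromosome end lay 31.3% of members, 44.9% of intermediate and 35.8% of CpG-rich bins. Of all bins over 2 kb from start sites, 6.31% lay there. Members had 2.02 positions per kb within this distance. Further inside they had 2.09.

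Among protein-coding genes, 4977 had a member in their body, and the 12 with the most members included several large genes near chromosome ends. SORCS2 (ENSG00000184985.16, chr4:7192538-7742836, plus strand), which encodes a sortilin-family receptor, had the most, with 180 members and 212 positions in them. Its members had 2.36 positions per kb, against 2.01 over the whole gene. KCNQ1 (chr11:2444654-2849105), a voltage-gated potassium channel, had 163 members at 2.40 per kb and 1.63 over the whole gene. RBFOX3 (chr17:79089345-79611051), a neuronal splicing factor, had 155 members at 2.55 per kb. CAMTA1 (chr1:6785454-7769706), a calmodulin-binding transcription activator, had 142 at 2.75 per kb, against 1.41 over its whole body. These 4 genes were denser in their members than over their length.

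GSE1 (chr16:85169525-85676204) had 153 members at 1.96 per kb. IQSEC1 (chr3:12897043-13283281), an exchange factor for ARF GTPases, had 125 at 2.16 per kb. Lower values were found in PRDM16 (chr1:3069168-3438621), a zinc finger transcription factor, with 127 positions in its members, 1.73 per kb. TAFA5 (chr22:48489553-48850912), a small secreted protein, had 149 at 1.48 per kb. SHANK2 (chr11:70467854-71252577), a scaffold protein of synapses, had 114 at 1.39 per kb. CDH4 (chr20:61252261-61940617), a cadherin of cell adhesion, had 133 at 1.04 per kb and 0.978 over the whole gene. In each of these 6 genes the members were also denser than the whole gene, which for GSE1, IQSEC1, PRDM16, TAFA5 and SHANK2 had 1.39, 1.95, 1.18, 1.11 and 1.04 per kb.

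PTPRN2 (chr7:157539056-158587823), a phosphatase-like receptor of secretory granules, holds both kinds of sequence. Its 115 members had 1.95 positions per kb, while its 63 CpG-rich bins held 11 positions in all. TTC34 (chr1:2636986-2801693), a tetratricopeptide-repeat gene, had 38 positions in 135 members, 0.563 per kb. Of these 135 members 119 were low in complexity and 15 were unique.

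Of the 129 genes with at least 30 members, 116 had a higher density in their members than over the whole gene, which includes sequence of all GC contents. Their median was 2.41 per kb, from 0.419 to 5.68. The 5 highest are given as a description, since they were chosen on density. CCDC33 (chr15:74202705-74336472), a coiled-coil protein, had 105 positions in 37 members, 5.68 per kb. LINGO1 (chr15:77613027-77820900), a component of the Nogo receptor complex, had 195 in 74, or 5.27 per kb. Both lie on the long arm of chromosome 15, and their whole bodies were dense too, at 4.06 and 4.29 per kb. CACNA2D2 (chr3:50362613-50504244), an auxiliary calcium channel subunit, followed at 4.15 per kb. RET (chr10:43077064-43130351), a receptor tyrosine kinase, had 4.07 per kb, and KIF1A (chr2:240713761-240824293), a kinesin motor of axonal transport, had 4.05. The 5 lowest were TTC34 and 4 genes whose whole length had 0.327 to 0.922 per kb. KDM4B (chr19:4969113-5153598), a histone lysine demethylase, had 9 positions in 43 members, 0.419 per kb, with 0.472 over its length. SPTBN5 (chr15:41848146-41894053), a beta spectrin, had 0.467 per kb and 0.327 over its length. ZMIZ1 (chr10:79068966-79316519), a transcriptional coactivator, had 0.754 and 0.699. CTIF (chr18:48539031-48863217), a translation initiation factor, had 0.824 and 0.922.

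Inside the members, positions lay on average over sequence somewhat richer in GC than the bin as a whole. A window of nucleosomal length, 73 bp to either side of a position, had 1.20 points ± 0.15 (SD, n = 22 chromosomes) more GC than the member bin itself, higher on 22 of 22 chromosomes (permutation p = 1e-05, adjusted 1.5e-05). CpG was also slightly higher there, by 0.098 per 100 bp ± 0.039, on 22 of 22 chromosomes (permutation p = 1e-05, adjusted 1.5e-05). Density rose from 0.624 per kb where that window had 40 to 50% GC to 2.76 per kb at 65 to 70%, and stood at 2.38 at 70 to 80%. By the number of CpG in the window, density rose from 1.81 per kb with none to 2.20 with 5. Weighted to the same local GC, it was 1.88 with none, 2.14 with 1, 2.08 with 3, 1.93 with 5 and 1.78 with 6. These densities span less than those of the CpG classes of bins. Members were chosen for a low ratio, which limits local CpG number, so the spans are not comparable. Density was 2.14 per kb within 1 bp of a CpG, 2.09 at 20 to 39 bp and 1.87 at 80 to 119 bp.

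Composition changed between 60 and 100 bp on either side of a position. The lowest GC and CpG lay at 80 to 100 bp, outside the window of 73 bp to either side. In members, GC rose from 56.0% at 90 to 100 bp upstream of the position to 62.7% in the 10 bp after it and fell back to 56.1% at 90 to 100 bp downstream. CpG dropped to 1.11 per 100 bp at 80 to 90 bp on either side, against 1.87 at the position. Dinucleotides of A and T only were at 15.1 per 100 bp at 90 to 100 bp upstream and 9.43 at the position. The 1054 positions in CpG-rich bins had their minima in the same 10-bp steps. There CpG fell from 8.04 per 100 bp at the position to 3.69 at 80 to 90 bp upstream and 3.62 downstream.

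**Figure D4:**
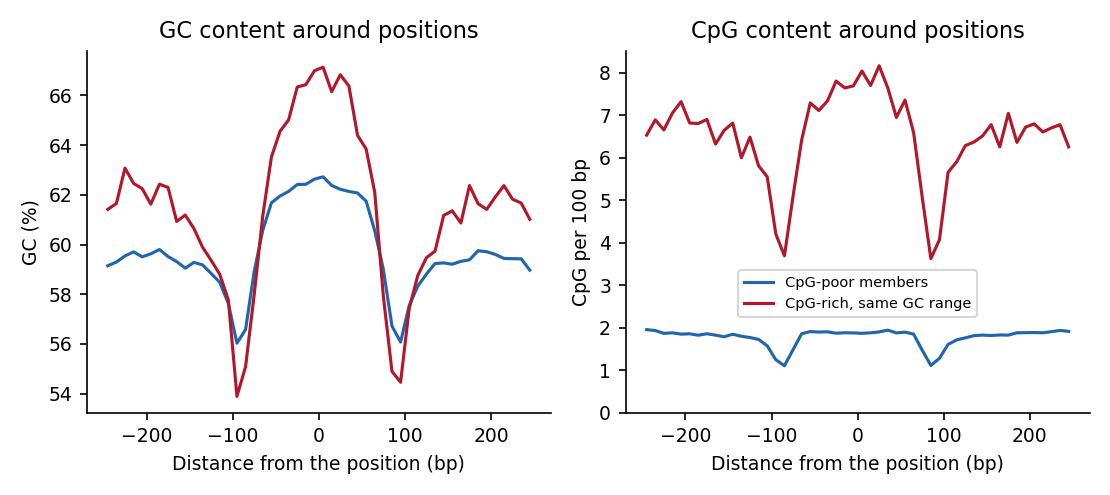
GC content (left) and CpG per 100 bp (right) against the distance from a listed position, in 10-bp steps on the plus strand, for the 48399 positions in members and the 1054 in CpG-rich bins. Both classes show a plateau around the position with minima 80 to 100 bp on either side.

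Positions in members were regularly spaced. The most frequent distance from a position in a member to the next position was 183 bp (184 bp ± 2.7, SD, n = 22 chromosomes, from 178 to 190 bp). Counting all pairs, maxima followed at 184, 381, 567, 754 and 943 bp. It was 185 bp in intermediate bins and 190 bp in CpG-rich bins, where only 212 distances lay between 100 and 300 bp.

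**Figure D5:**
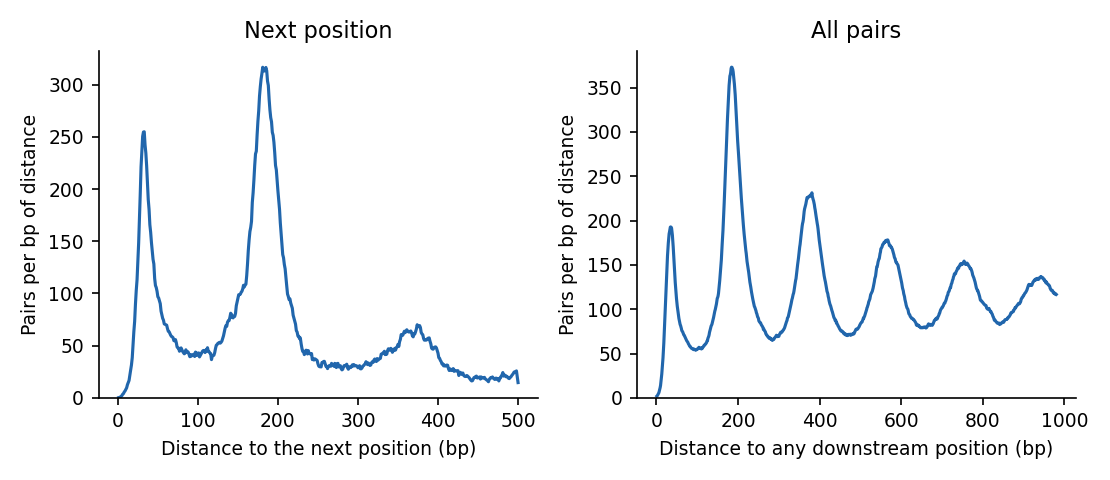
Number of pairs per bp of distance from positions in members to the next position (left, smoothed over 5 bp) and to any downstream position (right, smoothed over 21 bp). Maxima stand at 33 bp and 183 bp for the next position, and at 184, 381, 567, 754 and 943 bp for all pairs.

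Close pairs were more frequent per position in members than in all other bins together. Members also hold more positions per bin. A position counted as having a close neighbour when the next position lay under 60 bp downstream. This held for 5970 of 48399 positions in members, 12.3% (95% Wilson interval 12.045 to 12.63%), and for 8.98% of positions in all other bins over 2 kb from start sites. The log2 ratio was 0.40 ± 0.17, above 0 on 21 of 22 chromosomes (permutation p = 1e-05, adjusted 1.5e-05). CpG-poor bins just below the GC limit of the rule had a share of 12.8% (12.3 to 13.3%), so the excess was not particular to members. The share was 10.1% in bins just above the limit of the CpG ratio and 9.35% in all intermediate bins. CpG-poor bins of moderate GC had 10.2%. In CpG-rich bins the share was 7.31% (5.88 to 9.04%), with 77 close pairs in all and between 0 and 11 on a chromosome. As one GC-matched ratio over all autosomes, the log2 ratio of members to CpG-rich bins was 0.64, with no test. The mean over chromosomes was 0.95 ± 1.13 (permutation p = 0.0005, adjusted 0.000562). It is not relied on, since chromosomes 21 and 22 had 0 CpG-rich close pairs and got a value only through a continuity correction. Chromosomes 8 and 10 had the highest values, 3.50 and 3.32, from 1 such pair each. The most frequent distance under 80 bp was 33 bp in members and 29 bp in CpG-rich bins.

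Among bins with exactly 2 positions the direction turned against all other bins together and against CpG-rich bins. Of 8328 members with exactly 2 positions, these lay under 60 bp apart in 17.5% (16.7 to 18.3%), against 28.01% of 338257 other bins with 2 positions. The log2 ratio was -0.64 ± 0.21, below 0 on 22 of 22 chromosomes (permutation p = 1e-05). In CpG-rich bins with 2 positions the share was 29.9% (22.99 to 37.78%), 43 of 144. Intermediate bins with 2 positions were close to members, at 18.9% (17.7 to 20.1%), so the low share was not particular to members. CpG-poor bins of moderate GC had 23.3%. A fixed count does not match the classes for density, since 2 positions were reached by 17.8% of members and 2.31% of CpG-rich bins. Whether this selection shaped the shares was not tested. The comparison of bins with 2 positions was added after the data were seen.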

How the data were processed

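MNase-seq fragments of interphase ARPE-19 cells were sequenced in 2 batches. Per the submitters' processing notes, hg38 (GRCh38) and Bowtie2 were used. The caller, fragment filter, threshold and pooling are not given in the sources used here. The deposited list gives genome coordinates in hg38 and no other measured value; its 2634347 rows are each 1 bp, and 4 repeats were removed. The reference was hg38 with GENCODE 44 (218307 distinct start sites of all transcripts). Bins, GC strata and Mantel-Haenszel ratios were computed in Python 3.11.15 (numba 0.67.0, pandas 2.3.3, numpy 2.4.6 and, for intervals, scipy 1.17.1), and the ratio was checked on simulated positions. For each of 9 results the signs of the 22 autosomal values were flipped at random 100000 times (permutation test, two-sided), with Benjamini-Hochberg adjustment over the 9. Unique bins had no 31-mer, sampled every 20 bases, that recurs on chromosomes 1-22, X or Y. Low complexity meant distinct 10-mers under 80% of those possible. Islands followed a running score (17 for a CpG, -1 otherwise), over 500 bp, at least 55% GC and a ratio over 0.65. Named genes were the 12 protein-coding genes with the most members and the 5 highest and 5 lowest in density with at least 30 members, with the 5 longest runs. Sequences were the closest pairs of equal G and C, 1 per chromosome and none from chromosome 8 (1 of the 3 chosen pairs is not reported here), and exonic bins were passed over, a condition added after the data were seen. The regions and tests were chosen with earlier results of these data known.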

Additional observations from a re-analysis of the deposited data

Results flagged for a closer look

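Signal was found in rows outside the comparisons, above the 3 counts that a count of 0 allows. On sequences other than chromosomes 1-22 and X lay 1388 rows. On chromosome X, which the rule leaves out, 854 bins met the same sequence and start-site limits and held 431 positions, 1.01 per kb. Intermediate bins of X had 0.346 per kb, CpG-rich bins 0.244 per kb and all bins over 2 kb from start sites 0.474 per kb. These values were not tested.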

How the results depend on the processing

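Over 10 results, 154 alternative values were computed, 131 of them planned and 23, under 8 settings, added after the data were seen. Of the 154, 149 kept their direction and side of the threshold or moved by less than the SD. This count includes values that could not change. Leaving out 100-kb windows without a position removes no position, so close-pair shares and the composition around positions stayed the same. The log2 ratio of members to CpG-rich bins ranged from 1.60 (no start-site rule) to 2.60 (CpG limits of 0.2 and 0.75), and that to intermediate bins from 0.47 to 0.68. The larger CpG difference at high GC reversed to -0.17 without the start-site rule, was 0.12 without low-complexity bins and reached 1.24 in 200-bp bins. The ratio to CpG-poor bins of 44 to 50% GC was 0.068 when occupied bins were counted once. Close pairs reversed to -0.64 against all other bins and to -0.64 against CpG-rich bins when only bins with exactly 2 positions were used; other causes of these shifts were not tested. The excess of GC around positions was 0.50 points in 200-bp bins and 1.80 points in a window of 73 bp. Read depth is unknown, so an unlisted nucleosome cannot be told from one below the authors' threshold. No paired analysis was possible because the list does not separate the batches, and for the same reason neither batch could be left out.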
